A study of Mus musculus with 10 samples.

Results

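The muscarinic receptor genes Chrm1, Chrm2, Chrm3, Chrm4 and Chrm5 and the nicotinic subunit genes Chrna2, Chrna4, Chrna5, Chrna7 and Chrnb2 were followed in ribosome-bound RNA from dorsal and ventral mossy cell-enriched (MC-enriched) populations of the mouse hippocampus. These 10 genes were chosen by name from the 54838 genes in the count files, and 9 of them were among the 16806 genes tested. Both groups came from male C57BL/6 mice of about 10 weeks that carried Drd2-Cre together with the Cre-dependent ribosomal tag Eef1a1LSL.eGFPL10a/+ (MC-TRAP), and each group had 5 libraries, each from the pooled tissue of 5 mice, so the animals within a pool cannot be separated. Per the study's methods each hippocampus was cut into its dorsal and ventral part, so the groups come from the same mice, but the labels do not say whether libraries with the same number hold the same mice. TRAP (translating ribosome affinity purification) pulls down ribosomes carrying EGFP-tagged L10a with the RNA bound to them. Per the study, Drd2-Cre is active in hilar mossy cells but also in a part of the hippocampal GABAergic interneurons and in neurons of the ventral subiculum. That region was trimmed before the pull-down to limit contamination, and the paper states that some adjacent subicular tissue may still be included. No library of untagged or total RNA was used here, so enrichment over the whole tissue was not measured.

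Acetylcholine reaches the dentate gyrus mainly in fibres from the medial septum and acts there on both receptor families. Muscarinic receptors are G protein-coupled: M1, M3 and M5 (Chrm1, Chrm3, Chrm5) couple to Gq, activate phospholipase C and close the potassium channels of the M-current, whereas M2 and M4 (Chrm2, Chrm4) couple to Gi/o, lower cAMP and open GIRK potassium channels. Nicotinic receptors are pentameric cation channels. The alpha4 and beta2 subunits (Chrna4, Chrnb2) assemble together, alpha5 (Chrna5) joins such receptors as an accessory subunit, alpha7 (Chrna7) forms channels on its own, and alpha2 (Chrna2) is known in the hippocampus as a gene of the somatostatin interneurons that project from stratum oriens to stratum lacunosum-moleculare.

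Depth ranged from 11138676 to 20594364 counts on genes per library, and 3 counts, the smallest level read as present, corresponded to 0.146 to 0.269 CPM (counts scaled to a library total of 1000000). The reads were amplified and carry no molecular identifiers, so this floor covers counting error alone. Reads outside annotated exons made up 21.8% to 33.9% of the dorsal and 11.6% to 19.3% of the ventral libraries. The summed level of 8 mossy cell markers was 1990 to 2170 CPM in the dorsal and 1980 to 2270 CPM in the ventral libraries. Single markers in this sum shifted in opposite directions, so it does not measure mossy cell content. Gria2 was at 1141 CPM in the dorsal and 649 CPM in the ventral libraries, and Calb2 at 65.0 and 615 CPM (means). The GABA-synthesis gene Gad2 stood at 2390 to 3600 CPM over the 10 libraries and the vesicular glutamate transporter gene Slc17a7 at 131 to 282 CPM, so GABAergic and glutamatergic marker RNA was present in every library.

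Oligodendrocyte markers moved with the groups: their summed level was 2440 to 2900 CPM in dorsal against 905 to 1720 CPM in the ventral libraries, and 4 of 7 were called dorsal enriched. Of 6 astrocyte markers 4 were called dorsal and 1 ventral enriched, with sums of 225 to 305 and 236 to 331 CPM. Of 12 interneuron markers 3 (Sst, Pvalb, Lhx6) were called ventral and 1 (Dlx6) dorsal enriched, with sums of 3780 to 4860 CPM in the dorsal and 4480 to 5870 CPM in the ventral libraries. Of 8 mossy cell markers 3 (Cyp26b1, Gria2, Gria3) were called dorsal and 2 (Satb1, Calb2) ventral enriched. The corresponding counts were 1 and 1 of 6 granule cell markers (930 to 1140 against 1000 to 1270 CPM), 1 and 1 of 8 CA1 and CA3 pyramidal cell markers (447 to 517 against 375 to 513 CPM), 2 and 1 of 7 subiculum markers (124 to 156 against 110 to 190 CPM), and 1 and 0 of 7 microglia and endothelial markers (21.8 to 50.1 against 17.0 to 61.2 CPM). Among all tested genes 15.7% were called dorsal and 9.85% ventral enriched. The called subiculum markers were Gpc3 and Nts, dorsal enriched (log2 fold change 1.36 and 1.73), and Slc17a6, ventral enriched (-1.39). No marker in these lists was at 0 in all libraries. The part of these cell types in the receptor results was not tested.

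Divided by exonic length, which allows levels to be compared between genes, Chrm1 was the highest of the 10 receptor genes in both groups, at 14.1 ± 3.30 CPM per kb (SD, n = 5) in the dorsal and 8.62 ± 1.37 CPM per kb (SD, n = 5) in the ventral libraries. Chrm3 came next, at 6.17 ± 0.903 CPM per kb in the dorsal and 4.78 ± 0.891 CPM per kb in the ventral libraries. In the dorsal group the ranges of Chrm1 and Chrm3 did not overlap, nor did those of Chrm3 and Chrm2. The dorsal order then ran Chrm2, Chrna7, Chrna4, Chrm4 and Chrnb2, from 3.04 to 1.48 CPM per kb, and neighbours within this stretch overlapped. Below a gap that separated Chrnb2 from it, Chrna5 stood at 0.474 CPM per kb, Chrm5 at 0.133 and Chrna2 at 0.0978, again with overlapping neighbours.

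In the ventral group Chrna4 took the third place, at 3.84 ± 1.34 CPM per kb (SD, n = 5), against 1.95 ± 0.204 CPM per kb and the fifth place in dorsal libraries. Chrna2 was eighth, at 0.571 ± 0.520 CPM per kb, and Chrm5 was last, at 0.222 ± 0.104 CPM per kb. Only Chrm1 was separated from its next neighbour there; each of the other ventral neighbours overlapped. With the longest transcript in place of the summed exons, Chrna7 took the third place and Chrm2 the fourth in the dorsal group, and Chrnb2 and Chrm4 changed places there, as Chrna2 and Chrna5 did in the ventral group.

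**Figure D1:**
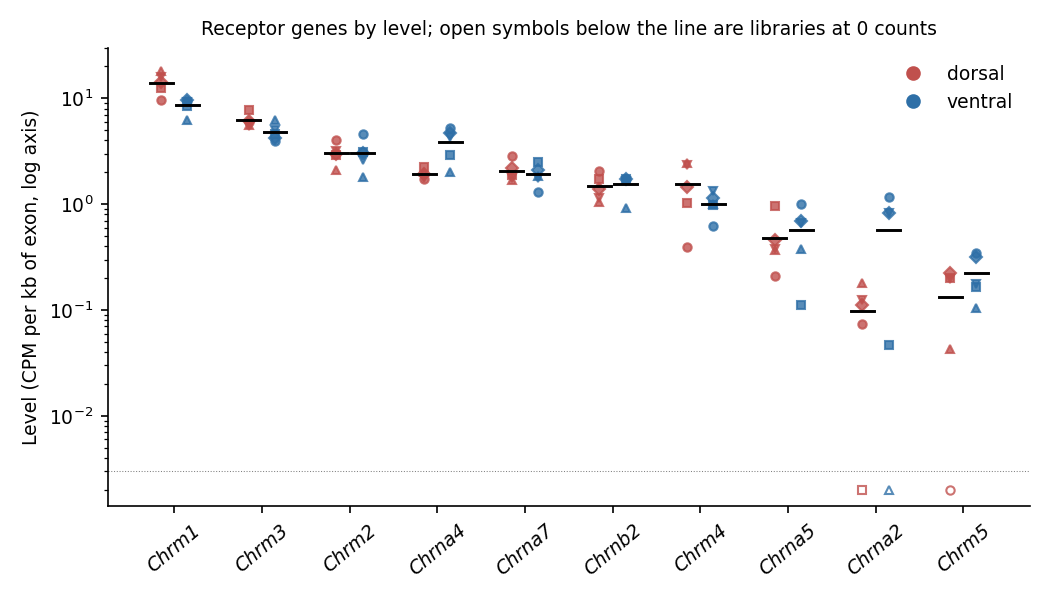
Level of the 10 receptor genes in CPM per kb of exon (log axis), ordered by the mean of both groups; each symbol is 1 library, red dorsal and blue ventral, and black bars are group means. Chrm1 lay on top in both groups, and open symbols under the dotted line mark libraries with 0 counts, which Chrna2 had in 1 dorsal and 1 ventral library and Chrm5 in 1 dorsal library.

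Over the 5 muscarinic genes together the summed level was 24.9 ± 3.25 CPM per kb in the dorsal and 17.7 ± 1.39 CPM per kb in the ventral libraries (SD, n = 5 each). Chrm1 made up 55.7% ± 6.38 of that sum in the dorsal and 48.5% ± 4.47 in the ventral libraries, with overlapping ranges. The 5 nicotinic genes summed to 6.07 ± 0.813 CPM per kb in the dorsal and 8.45 ± 2.21 CPM per kb in the ventral libraries. Chrna4 made up 32.4% ± 4.72 of the nicotinic sum in the dorsal and 44.5% ± 4.78 in the ventral libraries (SD, n = 5 each). These shares were not tested.

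Each gene was then compared between dorsal and ventral libraries with the quasi-likelihood test of edgeR, Benjamini-Hochberg adjusted over the 16806 tested genes, and was called enriched at an adjusted p under 0.05 where the log2 ratio of the group means, each CPM plus 1, exceeded 0.58 in size. A replicate is a pool of mice, so the p-values measure the spread between pools. Of the 9 tested receptor genes 1 was called dorsal enriched (Chrm1), beside 15.7% of all tested genes, and 2 were called ventral enriched (Chrna4, Chrna2), beside 9.85% of all tested genes. Chrna2 passed 1 CPM in 3 ventral libraries and in no dorsal one, so it could enter the test only with a ventral excess. Its call was also lost with edgeR 3's dispersions. The count of ventral calls is therefore no measure of a ventral excess among these genes. The other 6 did not pass the call. Over all genes 2636 were called dorsal and 1655 ventral enriched, and a correction for GC content and length changed this to 2029 and 3077, with the median of all genes moved to -0.17; the receptor calls were kept there. In no receptor gene were all dorsal libraries above all ventral ones or the reverse, beside 9.81% and 8.36% of all tested genes. The median log2 fold change (dorsal over ventral) was 0.50 over the 4 tested muscarinic genes, -0.32 over the 5 nicotinic genes and -0.0044 over all tested genes. With so few genes, the muscarinic median lay between the values of Chrm3 and Chrm4, and the nicotinic one was the value of Chrna5. None of these genes was called, so the medians do not show a split between the families.

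**Figure D2:**
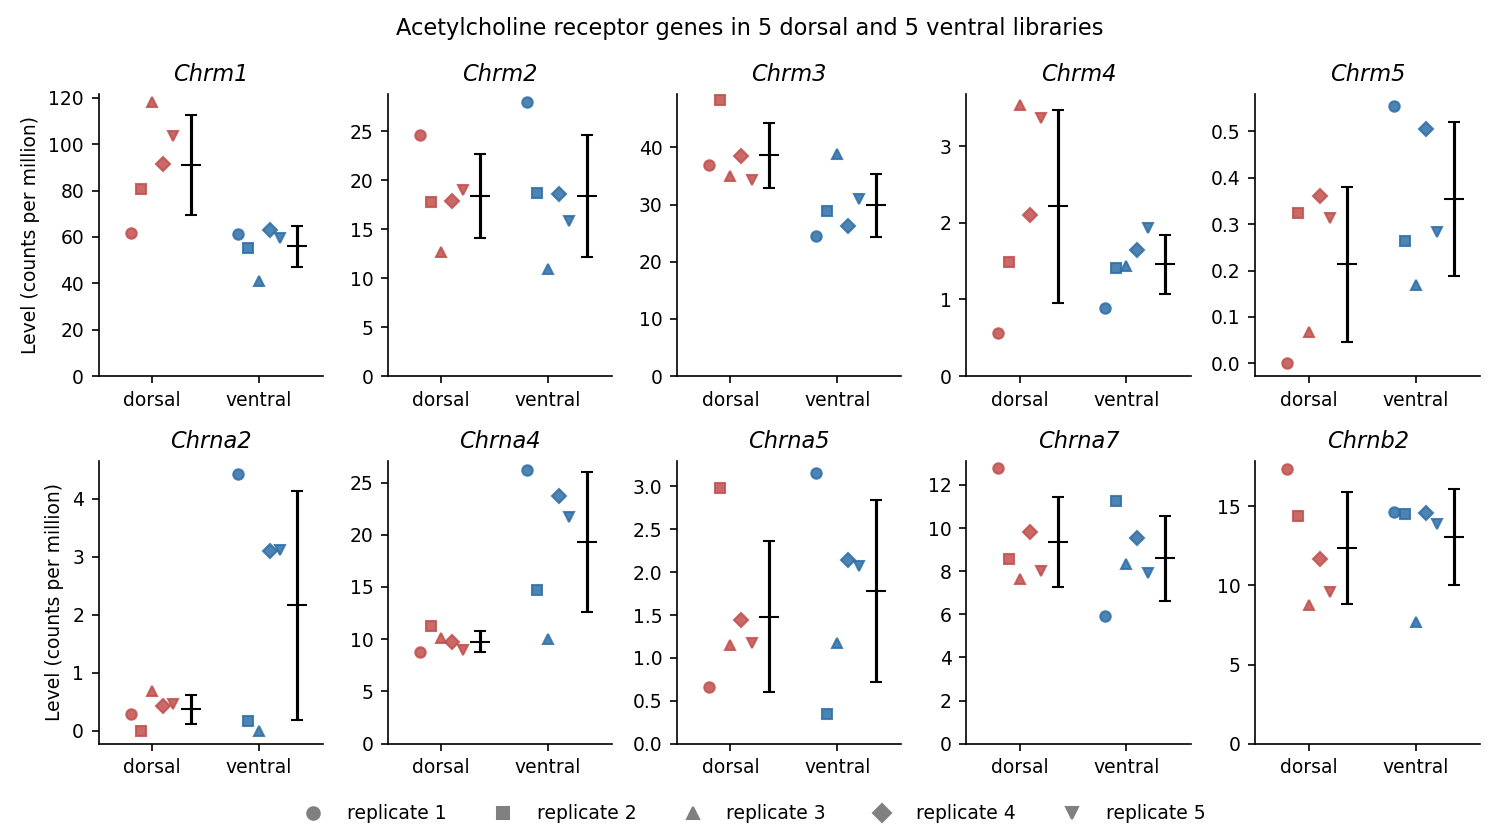
Level of each receptor gene in CPM (linear axes, one scale per gene) in the 5 dorsal (red) and 5 ventral (blue) libraries; marker shapes are replicate numbers, and black bars are the mean ± SD. For Chrm1 4 dorsal libraries lay above every ventral library, and 4 ventral libraries above every dorsal library for Chrna4, whereas Chrna2 was split within the ventral group.

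Among the Gq-coupled receptors, Chrm1, which encodes the main postsynaptic muscarinic receptor of forebrain glutamatergic neurons, was dorsal enriched. Chrm1 (ENSMUSG00000032773) lies on the plus strand of chromosome 19, 8663789 to 8683587 (GRCm38). Its level in replicates 1 to 5 of the dorsal group was 61.9, 80.7, 118, 91.5 and 104 CPM, and in those of the ventral group 61.1, 55.3, 40.9, 62.8 and 59.5 CPM. Dorsal replicates 2 to 5 lay above every ventral library, and dorsal replicate 1 lay within the ventral range. The mean was 91.1 ± 21.4 CPM in the dorsal and 55.9 ± 8.87 CPM in the ventral libraries (SD, n = 5 each), a log2 fold change of 0.70 (SE 0.17, edgeR adjusted p = 0.00651). The call held in each of the 25 alternatives, with log2 fold changes from 0.60 to 0.81. In such bulk precipitates fewer cells of a type and less RNA per cell cannot be told apart.

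Slc17a7 was compared with Chrm1 after its values were seen. It stood at 169, 171, 282, 212 and 224 CPM in the dorsal and at 174, 170, 131, 209 and 189 CPM in ventral replicates 1 to 5. Its highest and lowest libraries were those of Chrm1, dorsal replicate 3 and ventral replicate 3. In dorsal replicate 2 Slc17a7 lay within the ventral range, whereas Chrm1 lay above every ventral library. Its own log2 fold change of 0.28 was not called (edgeR adjusted p = 0.176). Whether the glutamatergic share of each pool bears on Chrm1 was not tested. The protein-coding genes closest to Chrm1 across the 10 libraries, by Pearson r of log2(CPM + 1) among 13549 genes and as a description, were Gm10037 (r = 0.988), 2510039O18Rik (r = 0.98) and Tmem151b (r = 0.98). Gm10037 ran from 3.66 to 9.39 CPM in the dorsal and from 1.6 to 3.35 CPM in the ventral libraries, with its highest value in dorsal replicate 3, as for Chrm1.

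Chrm3, the second Gq-coupled receptor gene in level, stood at 37.0, 48.2, 35.0, 38.5 and 34.3 CPM in the dorsal and at 24.5, 28.8, 38.8, 26.2 and 31.1 CPM in ventral replicates 1 to 5. Of the ventral libraries 4 lay below every dorsal one, and ventral replicate 3 lay inside the dorsal range. The log2 fold change of 0.39 (SE 0.15) was not called (adjusted p = 0.0666). Ventral replicate 3 thus held the lowest Chrm1 and the highest ventral Chrm3 level.

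Chrm5, the M5 receptor gene, was read at 0, 5, 1, 6 and 4 counts in the dorsal and 10, 3, 2, 8 and 6 counts in ventral replicates 1 to 5, or at most 0.554 CPM. It passed 1 CPM in no library and was not tested. In 4 of the 10 libraries it lay at or under the floor of 3 counts.

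Neither Gi/o-coupled receptor gene was called. Chrm2, whose M2 product is known as a presynaptic autoreceptor and as a receptor of interneurons, stood at 24.6, 17.8, 12.7, 17.9 and 19.1 CPM in the dorsal and at 28.0, 18.7, 10.96, 18.6 and 15.8 CPM in ventral replicates 1 to 5. The groups overlapped almost throughout, with means of 18.4 ± 4.26 and 18.4 ± 6.22 CPM (SD, n = 5 each). Its log2 fold change of -0.04 (SE 0.23, adjusted p = 0.905) changed sign with the method and with the libraries kept, between -0.38 and 0.17.

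Chrm4, the M4 receptor gene, was counted 6, 23, 52, 35 and 43 times in the dorsal and 16, 16, 17, 26 and 41 times in ventral replicates 1 to 5, or 0.563 to 3.54 CPM and 0.886 to 1.93 CPM. Of the dorsal libraries 3 lay above all ventral ones and dorsal replicate 1 lay below all of them. With a log2 fold change of 0.61 and an SE of 0.43 the difference did not stand out from the spread between libraries (adjusted p = 0.292).

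Of the nicotinic subunits, Chrna4 was ventral enriched. Chrna4 (ENSMUSG00000027577) lies on the minus strand of chromosome 2, 181018380 to 181043546 (GRCm38). It stood at 8.73, 11.3, 10.1, 9.77 and 8.94 CPM in the dorsal and at 26.2, 14.8, 10.03, 23.7 and 21.7 CPM in ventral replicates 1 to 5. Dorsal libraries were tightly grouped, 4 ventral libraries lay above all of them, and ventral replicate 3 fell within the dorsal range. The means of 9.77 ± 1.02 CPM and 19.3 ± 6.70 CPM (SD, n = 5 each) gave a log2 fold change of -1.02 (SE 0.24, edgeR adjusted p = 0.0064), and the call held in each of the 25 alternatives, from -1.16 to -0.82.

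Its partner subunit gene Chrnb2 (ENSMUSG00000027950), on the minus strand of chromosome 3 from 89746195 to 89764632, did not follow. Chrnb2 stood at 17.4, 14.4, 8.78, 11.7 and 9.57 CPM in the dorsal and at 14.6, 14.5, 7.67, 14.6 and 13.9 CPM in ventral replicates 1 to 5. Of the ventral libraries 4 lay close together inside the dorsal range and ventral replicate 3 lay below all other libraries. The log2 fold change was -0.12 (SE 0.23, adjusted p = 0.721). Exons of Adar cover 16.3% of the Chrnb2 exons, and the strand setting of the counting is not stated, so reads in that stretch could not be assigned with certainty.

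The ratio of Chrna4 to Chrnb2 counts within each library, with a small constant added to both, was compared directly. It was not divided by exonic length, so its sign does not tell which gene was higher per kb. Its log2 value was -0.99, -0.35, 0.21, -0.26 and -0.097 in the dorsal and 0.84, 0.026, 0.39, 0.70 and 0.65 in ventral replicates 1 to 5. Dorsal replicate 3 and ventral replicate 2 were the libraries at which the groups overlapped. The mean was -0.30 ± 0.44 in the dorsal and 0.52 ± 0.32 in the ventral libraries (SD, n = 5 each), a difference of -0.82 with a two-sided exact permutation p of 0.0159 (0.0476 adjusted over 3 ratios). With single libraries left out the difference stayed between -0.94 and -0.65. Without dorsal replicate 3 or ventral replicate 2, where the groups no longer overlapped, the exact permutation p was 0.0159 (0.0476 adjusted). That is the smallest p that 5 against 4 libraries can give, and it follows from leaving out a library at which the groups overlapped. In the other 8 cases the adjusted p of the exact test was 0.0714 to 0.0952, so the ratio did not pass 0.05 there.

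The other ratios, taken from counts in the same way, did not pass. Chrm1 over Chrm3, both Gq-coupled, differed by 0.31 on the log2 scale (1.22 ± 0.47 in the dorsal and 0.91 ± 0.50 in the ventral libraries; two-sided exact permutation p = 0.333, 0.5 adjusted). Chrm2 over Chrm4, both Gi/o-coupled, differed by -0.35 (3.25 ± 1.33 and 3.61 ± 0.81; two-sided exact permutation p = 0.627, 0.627 adjusted).

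**Figure D3:**
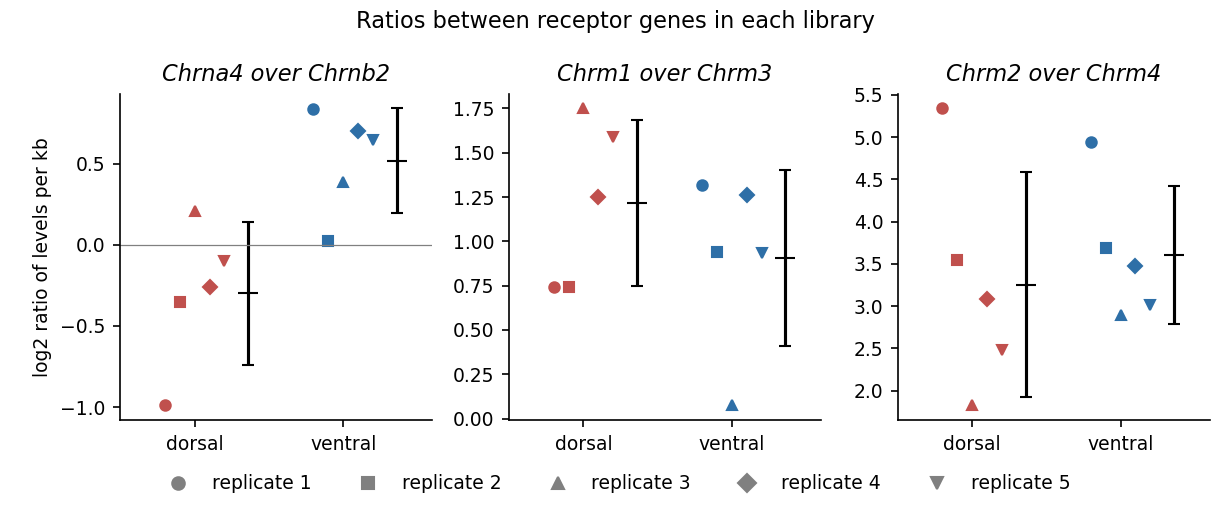
Log2 ratio of the counts of 2 receptor genes within each library, dorsal in red and ventral in blue. The axis label says per kb, but the counts were not divided by exonic length. Marker shapes are replicate numbers and black bars the mean ± SD of 5 libraries. For Chrna4 over Chrnb2 the group means were -0.30 and 0.52, with dorsal replicate 3 above ventral replicate 2, and for the other ratios the groups overlapped widely.

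The promoters of this subunit pair are printed because their products assemble together and their ratio is the one compared above. They are RefSeq sequences of GRCm38.p6, from 250 bases before to 50 after the annotated start, 5′ to 3′ on the gene's own (minus) strand, at chr2:181039128-181039427 for Chrna4 and chr3:89764583-89764882 for Chrnb2. The RefSeq start of Chrna4 used there lies inside the wider gene interval given above. Capitals mark the GC box, GGGCGG or, on the other strand, CCGCCC.
Chrna4: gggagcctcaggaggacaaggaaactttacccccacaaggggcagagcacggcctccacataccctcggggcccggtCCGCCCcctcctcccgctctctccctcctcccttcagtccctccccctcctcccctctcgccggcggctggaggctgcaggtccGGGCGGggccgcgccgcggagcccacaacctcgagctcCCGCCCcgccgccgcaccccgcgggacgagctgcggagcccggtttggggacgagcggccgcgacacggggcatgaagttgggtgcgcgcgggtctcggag
Chrnb2: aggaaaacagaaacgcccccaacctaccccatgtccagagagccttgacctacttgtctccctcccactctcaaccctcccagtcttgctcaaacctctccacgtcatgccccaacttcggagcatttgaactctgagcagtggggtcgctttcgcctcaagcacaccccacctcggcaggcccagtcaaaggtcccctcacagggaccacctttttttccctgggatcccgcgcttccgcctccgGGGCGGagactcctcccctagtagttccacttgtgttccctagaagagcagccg
The Chrna4 stretch holds 3 GC boxes and 33 CpG in 74.3% GC, and the Chrnb2 stretch 1 GC box and 12 CpG in 59.0% GC. A GC box stands in 35.7% of the 32851 promoters of the same length in that table, whose median GC content is 52.7%. In all, 8 of the 10 receptor genes matched, with 9 promoters, of which 6 hold a GC box. Such a match describes the letters and not a binding site.

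Chrna2 (ENSMUSG00000022041), on the plus strand of chromosome 14 from 66135039 to 66152948, was called ventral enriched from few libraries. It was read at 3, 0, 10, 7 and 6 counts in the dorsal and 80, 2, 0, 49 and 66 counts in ventral replicates 1 to 5, or 0 to 0.680 CPM and 0 to 4.43 CPM. Ventral replicates 1, 4 and 5 lay above every dorsal library, and ventral replicates 2 and 3 lay at or under the floor. Only these 3 ventral libraries carried it past 1 CPM, so it could enter the test only with a ventral excess. The log2 fold change was -2.72 (SE 0.74, edgeR adjusted p = 0.00952), between -3.06 and -2.35 with single libraries left out, and each of those 10 fits kept the call. Other methods did not: the adjusted p was 0.0603 with DESeq2, 0.0559 with the likelihood-ratio test and 0.0914 with the quasi-likelihood dispersions of edgeR 3, and under a filter of 1 CPM in at least 5 libraries Chrna2 was not tested.

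Sst, the somatostatin gene, was counted 437 to 479 CPM in the dorsal and 925, 751, 586, 680 and 628 CPM in ventral replicates 1 to 5 (log2 fold change -0.66, adjusted p = 0.000988). Chrna2 was at 4.43, 0.176, 0, 3.09 and 3.11 CPM in the same ventral libraries. Elfn1, another gene of the somatostatin interneurons, stood at 27.0 to 61.8 CPM in the dorsal and 45.9 to 66.9 CPM in the ventral libraries and was not called (adjusted p = 0.569). Npy, looked at with them, was at 70.2 to 92.4 CPM in the dorsal and 74.5 to 116 CPM in the ventral libraries. Reln was at 93.1 to 124 CPM and 122 to 165 CPM. The part of somatostatin interneurons in the Chrna2 difference was not tested.

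The same 3 ventral libraries were also the highest for Chrna4 and the deepest of the ventral group, with 15206186 to 20594364 counts on genes, whereas ventral replicates 2 and 3 had 11618625 and 12308069. The protein-coding genes closest to Chrna2 were Cox4i2 (r = 0.986), Podn (r = 0.972) and Cox7b2 (r = 0.971), and those closest to Chrna4 were Trpv3 (r = 0.966), Zbed5 (r = 0.966) and C77080 (r = 0.963), each over 10 libraries and 13549 genes. Podn was at 3.60, 2.40 and 1.74 CPM in ventral replicates 1, 4 and 5 and at no more than 0.204 CPM in any other library. C77080 was at 14.8, 8.21 and 6.97 CPM in ventral replicates 1, 4 and 5, at 3.95 and 2.70 CPM in ventral replicates 2 and 3, and at 1.03 to 2.92 CPM in dorsal libraries. Whether these libraries differ in depth, dissection or cell content in a way that bears on these genes was not tested.

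Chrna7 and Chrna5 were not called. Chrna7, the alpha7 gene, stood at 12.8, 8.56, 7.62, 9.83 and 7.999 CPM in the dorsal and at 5.93, 11.3, 8.34, 9.54 and 7.92 CPM in ventral replicates 1 to 5. Dorsal replicate 1 was above and ventral replicate 1 below all others, and the remaining 8 libraries were mixed. The log2 fold change of 0.14 (SE 0.23, adjusted p = 0.671) turned to -0.11 after correction for GC content and length, where the median of all genes was -0.17. Chrna5, the accessory subunit gene, was counted 7, 46, 17, 24 and 15 times in the dorsal and 57, 4, 14, 34 and 44 times in ventral replicates 1 to 5. The highest and the lowest of these levels, 3.16 and 0.352 CPM, were both ventral, and the log2 fold change was -0.32 (SE 0.48, adjusted p = 0.635).

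**Figure D4:**
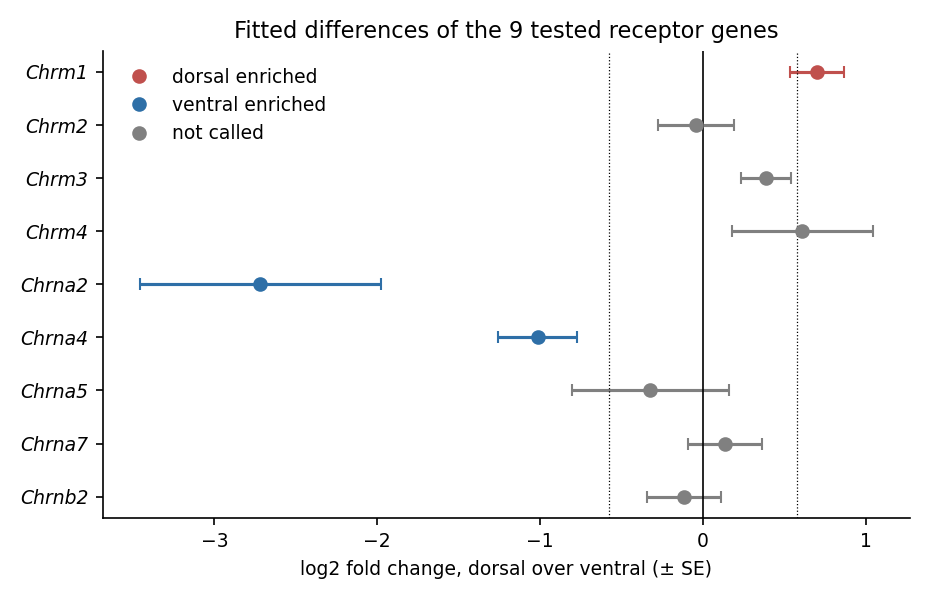
Fitted log2 fold change (dorsal over ventral) with its SE for the 9 tested receptor genes; red was called dorsal enriched, blue ventral enriched and grey neither, and dotted lines stand at 0.58 either side of 0. Chrm1 lay at 0.70, Chrna4 at -1.02 and Chrna2 at -2.72 with the widest error; Chrm4, at 0.61, had an SE of 0.43.

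Genes around the receptors were followed in lists that hold 11 other nicotinic subunits, 7 genes of acetylcholine synthesis, transport and breakdown, 9 chaperones and prototoxins, 10 genes of the Gq pathway and M-current and 10 of the Gi/o pathway. Among all tested genes 15.7% were called dorsal and 9.85% ventral enriched, and the median log2 fold change was -0.0044. The groups did not overlap in 9.81% (dorsal above) and 8.36% (ventral above) of all tested genes. Of the other nicotinic subunits 5 were tested, 1 was called dorsal and 0 ventral enriched, and the list's median log2 fold change was 1.32. This median was the value of Chrna3, which was not called (SE 0.61, edgeR adjusted p = 0.104). Placing Chrne at its lower bound could therefore not move it. All genes of this list were low: Chrna1, Chrnb1 and Chrnb3, the highest per kb, reached 0.401, 0.404 and 0.311 CPM per kb. Chrne, the subunit of the adult muscle receptor, was read at 0, 0, 30, 7 and 14 counts in the dorsal and 0 in every ventral library, which is at least 18.6-fold higher against a floor of 3 counts over the ventral group. It was called (adjusted p = 0.0412), but the call was lost without dorsal replicate 4 (0.0615) and without any single ventral library (0.0514 to 0.0792), and without dorsal replicate 3 or 5 it was not tested. Only these 2 dorsal libraries carried it past 1 CPM, so like Chrna2 it could enter the test only with an excess in that group. Chrna1 (log2 fold change -0.05), Chrnb1 (0.73) and Chrnb3 (1.78) were not called (adjusted p = 0.942, 0.369 and 0.079), although Chrnb3 was called without dorsal replicate 2 (0.0156) and with no expression filter (0.0154). Chrna9 was at 0 in all libraries.

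Of the genes of acetylcholine synthesis, transport and breakdown 3 of 7 were tested, and the median log2 fold change was 0.08. Bche, which encodes butyrylcholinesterase, was called dorsal enriched, at 4.38 ± 2.05 CPM against 1.57 ± 1.53 CPM (SD, n = 5 each; log2 fold change 1.70, SE 0.52, adjusted p = 0.0215). The groups overlapped, and the call was lost without dorsal replicate 3 (0.0517), ventral replicate 1 (0.05) or ventral replicate 5 (0.0614), with the likelihood-ratio test (0.0547) and with edgeR 3's dispersions (0.0842). Corrected for GC and length, Bche had a log2 fold change of 0.94 (adjusted p = 0.181; 0.76 with the replicate block as well), and without ventral replicate 2 it was 2.34. Ache, the acetylcholinesterase gene, stood at 10.3 ± 3.85 and 13.7 ± 2.56 CPM and was not called (log2 fold change -0.38, adjusted p = 0.251). Slc5a7, the choline transporter gene, was close to 1 CPM in both groups (1.07 ± 0.890 and 1.06 ± 0.857 CPM; log2 fold change 0.08, adjusted p = 0.94). Chat, the gene of the acetylcholine-synthesizing enzyme, was at 0 to 1.02 CPM in the dorsal and 0 to 0.0843 CPM in the ventral libraries and was not tested.

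Among chaperones and prototoxins, small membrane-anchored proteins that bind nicotinic receptors, 8 of 9 were tested, and the median log2 fold change was -0.0094. Of these 1 was called dorsal and 1 ventral enriched, beside 15.7% and 9.85% of all tested genes. Lypd6, which encodes a prototoxin, was at 27.1 to 48.5 CPM in the dorsal and 63.4 to 77.6 CPM in the ventral libraries (log2 fold change -0.94, SE 0.15, adjusted p = 0.000476). Lypd1, also known as Lynx2, was at 76.6 to 150 CPM in the dorsal and 47.6 to 64.4 CPM in the ventral libraries (log2 fold change 0.86, SE 0.17, adjusted p = 0.00193), with 17.1% of its exons shared with Gpr39. For both the dorsal and ventral libraries did not overlap, and both were called in every alternative. Per kb the highest of the list were Lynx1 (75.8 CPM per kb), the chaperone gene Tmem35a (62.4 CPM per kb) and Ly6e (23.8 CPM per kb). None of these 3 was called, with log2 fold changes of 0.02, 0.34 and -0.21 (adjusted p = 0.934, 0.122 and 0.214).

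In the Gq pathway and M-current list all 10 genes were tested, and the list's median log2 fold change was 0.04. Of these 1 was called dorsal and 1 ventral enriched, beside 15.7% and 9.85% of all tested genes. Plcb4, a phospholipase C beta gene, was at 220.8 to 251.5 CPM in the dorsal and 99.5 to 164 CPM in the ventral libraries (log2 fold change 0.94, SE 0.13, adjusted p = 0.000183). Rgs4, whose product speeds the shut-off of Gq and Gi/o proteins, was at 131 to 228 CPM in the dorsal and 235 to 275 CPM in the ventral libraries (log2 fold change -0.64, SE 0.14, adjusted p = 0.0032), and missed the fold limit without dorsal replicate 2; corrected for GC and length, its log2 fold change was -0.98. In both genes the groups did not overlap.

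Kcnq3, a channel subunit of the M-current, was at 1042 ± 223 CPM in the dorsal and 741 ± 71.2 CPM in the ventral libraries, with a log2 fold change of 0.49 (adjusted p = 0.0163) under the fold limit. Its log2 fold change was 0.62, and called, without dorsal replicate 2, but 0.20 (adjusted p = 0.286) when corrected for GC and length and 0.18 (0.378) with the replicate block as well. Gnaq, the Gq alpha gene and with Rgs4 and Kcnq3 among the 3 highest of the list per kb, at 112 CPM per kb, was not called (log2 fold change 0.20, adjusted p = 0.105).

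In the Gi/o list all 10 genes were tested, and the list's median log2 fold change was -0.18. Of these 2 were called dorsal and 1 ventral enriched, beside 15.7% and 9.85% of all tested genes. The 3 called genes encode GIRK channel subunits, which differed in direction. Kcnj3 (GIRK1) was at 223 to 351 CPM in the dorsal and 133 to 194 CPM in the ventral libraries (log2 fold change 0.92, SE 0.13, adjusted p = 0.000326), with 31.1% of its exons shared with Gm26794. Kcnj6 (GIRK2) was at 28.7 to 35.4 CPM in the dorsal and 9.05 to 20.7 CPM in the ventral libraries (log2 fold change 1.08, SE 0.20, adjusted p = 0.00128). Kcnj9 (GIRK3) was at 19.1 to 26.1 CPM in the dorsal and 30.4 to 54.9 CPM in the ventral libraries (log2 fold change -0.94, SE 0.17, adjusted p = 0.00112). The groups did not overlap for any of the 3, and each was called in all 25 alternatives. Kcnj5 (GIRK4), also in the list, was at 7.82 ± 4.46 CPM in the dorsal and 12.3 ± 3.51 CPM in the ventral libraries. Its log2 fold change of -0.77 (SE 0.32) was not called (edgeR adjusted p = 0.0765). The G protein genes highest per kb, Gnai1 (188 CPM per kb) and Gnao1 (82.4 CPM per kb), had log2 fold changes of -0.18 and -0.19 and were not called (adjusted p = 0.277 and 0.101), although Gnai1 was called ventral enriched after correction for GC content and length (-0.59, adjusted p = 0.00974, where the median of all genes was -0.17).

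**Figure D5:**
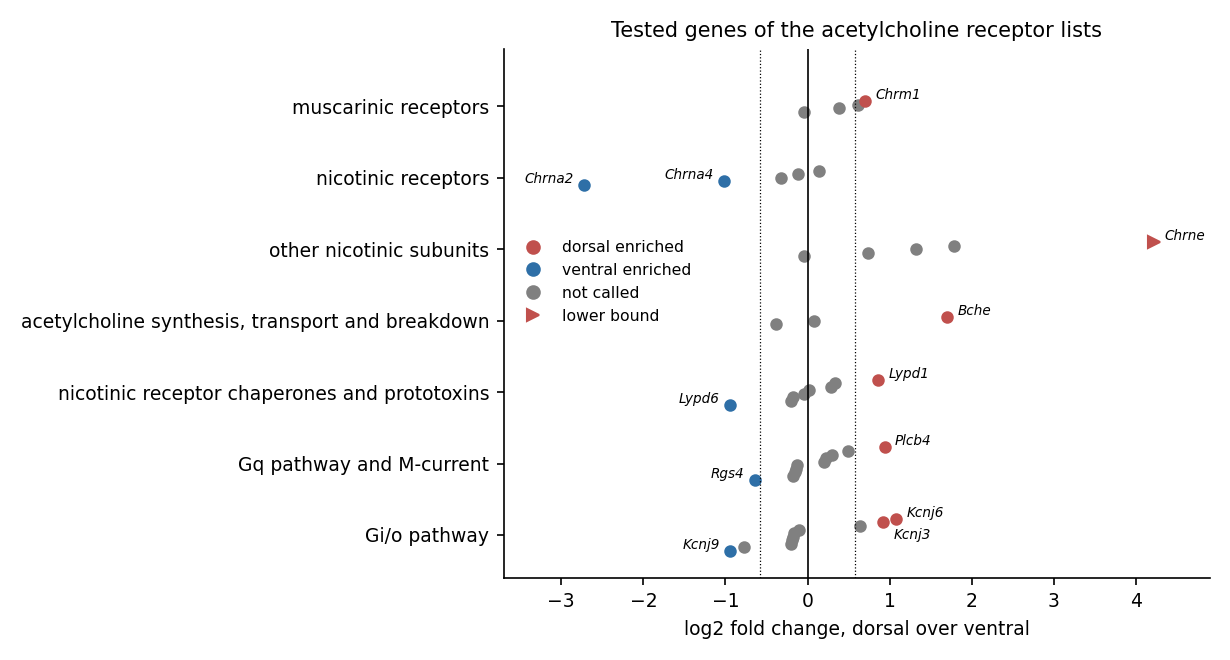
Log2 fold change (dorsal over ventral) of each tested gene in the receptor families and 5 lists around them; red dots were called dorsal enriched, blue ventral enriched and grey neither, dotted lines stand at 0.58 either side of 0, and the arrowhead is a lower bound for Chrne, which had 0 counts in all ventral libraries. Kcnj3 and Kcnj6 lay at 0.92 and 1.08 and Kcnj9 at -0.94 within 1 list.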

How the data were processed

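Ribosome-bound RNA of 5 dorsal and 5 ventral hippocampal pools was amplified (Ovation RNAseq V2), sequenced as paired ends, aligned by the authors to GRCm38 with STAR 2.5.2b and counted per Ensembl gene with HTSeq 0.7.2. The deposited values are raw counts per gene, 1 file per library; the annotation release and strand setting are not given in the sources used here. Summary rows that name no gene were left out of library sizes: 11.6% to 33.9% of counts per library fell in no feature and 5.92% to 8.66% were ambiguous. Groups and replicate numbers came from the sample titles. A chi-square over genes, divided by its degrees of freedom, was 4.70 to 49.5 for pairs within a group, where sampling noise alone gives about 1, so none was counted as a duplicate.

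CPM used TMM-scaled library sizes. Genes above 1 CPM in at least 2 libraries were tested in R 4.3.3 with edgeR 4.0.16 (quasi-likelihood, edgeR 4 dispersions, dorsal against ventral, no covariate); the SE is the fitted log2 difference over the root of F. The dispersions of edgeR 3 were fitted first, and the choice was made with both results known, to match an earlier processing of these counts; the Chrna2 call depends on it. The scripts were tested on simulated data. Exonic length, GC content and coordinates came from GENCODE (GRCm38). Alternatives were other scalings, filters, tests, thresholds, a replicate block, a GC and length correction and leaving out each library; protein-coding genes alone and edgeR 3 dispersions were added after seeing the data.

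The receptor genes and the lists were chosen with earlier results of these data known. Named were all 10 receptor genes, every called gene and the 3 highest genes per kb of each list, and the 3 genes most like each called receptor gene in Pearson r. Slc17a7, Gad2, Sst, Elfn1, Npy, Reln, Chat, Chrna3, Chrna9, Kcnj5 and the called interneuron, mossy cell and subiculum markers were named after their values were seen. A gene of the Gq pathway and M-current list is not reported here, and the list's counts and median leave it out.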

Additional observations from a re-analysis of the deposited data

Results flagged for a closer look

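The Chrnb2 level in the ventral group stood out because of a single library: ventral replicate 3 was at 7.67 CPM, while the other 4 ventral libraries were at 13.9 to 14.6 CPM. The gap was 0.89 of the group's range, above Dixon's 95% critical value of 0.71 for 5 libraries. Chance passes that critical value in about 1 in 20 groups, and reaches a gap of 0.89 in fewer. In all, 26 groups (levels and ratios of the receptor genes) were examined. Without ventral replicate 3 the log2 fold change of Chrnb2 was -0.24 and was not called (adjusted p = 0.395).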

How the results depend on the processing

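Chrm1 and Chrna4 kept their calls and directions in all 25 alternatives, and Chrm3, Chrm4, Chrna5 and Chrnb2 kept their direction and stayed uncalled. The Chrna2 call was lost with DESeq2 (-2.52, adjusted p = 0.0603), the likelihood-ratio test (-2.52, 0.0559) and edgeR 3's dispersions (-2.53, 0.0914); over its alternatives other than left-out libraries the adjusted p ran from 0.00107 to 0.0914. Chrm2 changed sign with DESeq2 (0.0244), with the replicate block (0.0176), and within -0.165 to 0.171 with libraries left out. Chrna7 changed sign with the GC and length correction (-0.113) and with that and the block (-0.137). Slc5a7 did so in the same fits (-0.339 and -0.474) and Tmem35a in the second (-0.00194); with libraries left out Slc5a7 ran from -0.407 to 0.525, Chrna1 from -0.273 to 0.137 and Lynx1 from -0.0647 to 0.131. The cause of these shifts was not tested.

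The log2 ratio of Chrna4 over Chrnb2 ran from -0.944 to -0.645 with libraries left out. The replicate block gave -0.818 and an exact permutation p adjusted to 0.188, where 5 pairs cannot give an unadjusted p under 0.0625. Chrm2 over Chrm4 ran from -0.871 to 0.00563 with libraries left out.

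Calls over all genes, 2636 dorsal and 1655 ventral enriched, became 1498 and 897 at an adjusted p below 0.01, 1643 and 1288 with protein-coding genes alone, 2029 and 3077 with the GC and length correction, and 2125 and 3142 with that and the block; leaving out libraries gave 2102 to 2670 and 1212 to 1815. The median of all genes was 0.11 with no expression filter. The replicate block gave 2656 and 1673 calls. Same-numbered dorsal and ventral libraries did not deviate together (correlations of -0.0317 to 0.0695; 1 of 5 was closest to its own number), and the labels do not say that a number marks a shared pool, so pairing by number was not made the main fit. Both parts were cut from the same mice, so some pairing may exist that these numbers do not show. Depth limits Chrm5 and Chrna2, which several libraries hold at or under 3 counts.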
